A study of Mus musculus with 3 samples.

Results

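Imprinted growth genes are genes of fetal growth that are read mainly from the maternal or the paternal copy. The 10 genes described here were Igf2, H19, Dlk1, Meg3, Grb10, Cdkn1c, Peg3, Peg10, Mest and Plagl1, out of 22907 genes named on the array. They were chosen by name, and their probes were found by matching the RefSeq accession of each probe to the mouse gene symbol. This gave 19 probes of 32989 named probes, each printed on 1 spot. In the arrays of this hepatoma line, 1 of the 10 genes, Plagl1, was well above background on all 3 arrays and 6 were above background on none. A pattern of fetal-type expression was therefore not seen for the list, and its name is used here for the genes and not for a state of the cells.

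Imprinted genes are controlled by methylation marks set in the germ line, so that the maternal or the paternal copy is largely silent. Many of the paternally read genes favour fetal growth, among them Igf2, which encodes the insulin-like growth factor of fetal life, and many of the maternally read genes limit it, among them Cdkn1c, an inhibitor of cyclin-dependent kinases, and Grb10, an adaptor that dampens insulin receptor signalling. In rodent liver Igf2, H19 and Dlk1 are abundant before birth and fall after it, and some of these genes can return in liver tumours.

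RNA levels were read by array in Hepa1c1c7 cells, a line derived from a mouse hepatoma, which carried either an empty vector (pCMV6-Kan/Neo), an open reading frame clone of the receptor tyrosine kinase Mst1r or an open reading frame clone of the secreted protease inhibitor Slpi. All 3 groups shared the line, the transfection and the array type, the labels give liver as the tissue, and no group was left untransfected. Each group was 1 array, and the number of cultures behind its RNA was not known here. The values are processed signals, which are spot intensities after background subtraction, and 48.5%, 46.7% and 48.1% of all non-control probes were well above background on the arrays labelled empty, Mst1r and Slpi. Since a group was 1 array, the differences have no replicate check and were not tested. Errors are the SD given by spots of probes printed repeatedly on 1 array, so they cover no variation between cultures. The empty vector array served in both comparisons, so they are not independent.

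The probes of the transfected genes gave no check of the labels. The Mst1r probe read 4.15, 4.08 and 3.70 on the arrays labelled empty, Mst1r and Slpi, and all 3 values were at background. The brighter Slpi probe read 6459, 3843 and 6680, which is 0.13 ± 0.13 on the log2 scale between the arrays labelled Slpi and empty. Open reading frame clones lack the ends of the natural transcript, and whether these probes lie within the cloned part was not examined. The groups below are therefore the arrays labelled so. Of the marker genes of mature hepatocytes, 3 of 9 were well above background on all arrays, against 54.4% of the named genes. These were bright, with Trf at 48573, 35784 and 47485, Alb at 5083, 6449 and 4966, and Apoa2 at 2631, 2196 and 2591. Hnf4a, a transcription factor that maintains the hepatocyte program, and Apob, the structural protein of lipoproteins, were above background on none. The others were so on some arrays only. On all arrays, 5 of 8 fetal liver markers, 4 of 4 bile duct markers and 4 of 7 fibroblast markers were well above background. So were 1 of 5 endothelial markers and 3 of 7 blood and macrophage markers.

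Promoter stretches, the 250 bases just before the start site, are shown for the single detected member and for a pair of members at or near background. Whether these stretches hold an imprinted methylation mark was not examined. They were taken from RefSeq (GRCm38.p6) and are written 5′ to 3′ on the strand of the gene, and capitals mark each CG, which reads the same on both strands. A window was held for 7 of the 10 genes, in 14 windows, while H19, Cdkn1c and Peg10 had none.
Plagl1, chr10:13090582-13090831, plus strand: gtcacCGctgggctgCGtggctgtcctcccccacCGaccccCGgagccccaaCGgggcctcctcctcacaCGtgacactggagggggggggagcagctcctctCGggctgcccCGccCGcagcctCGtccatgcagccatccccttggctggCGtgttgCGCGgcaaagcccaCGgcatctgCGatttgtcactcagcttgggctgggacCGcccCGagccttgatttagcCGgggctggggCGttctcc
Igf2, chr7:142658805-142659054, minus strand: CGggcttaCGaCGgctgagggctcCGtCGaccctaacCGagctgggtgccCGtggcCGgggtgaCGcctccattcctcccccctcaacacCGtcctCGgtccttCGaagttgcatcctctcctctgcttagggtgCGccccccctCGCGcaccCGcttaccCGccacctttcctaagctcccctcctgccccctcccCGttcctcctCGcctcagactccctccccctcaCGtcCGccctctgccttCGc
Grb10, chr11:12037421-12037670, minus strand: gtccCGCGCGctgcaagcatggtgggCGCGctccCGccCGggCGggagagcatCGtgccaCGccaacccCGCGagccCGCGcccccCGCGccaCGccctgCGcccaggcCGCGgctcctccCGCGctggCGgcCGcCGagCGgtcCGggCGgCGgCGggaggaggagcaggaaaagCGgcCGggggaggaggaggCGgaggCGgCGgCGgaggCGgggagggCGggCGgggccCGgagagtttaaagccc

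The window of the detected Plagl1 held 19 CG, and 19.7% of 32851 windows of the same length held at least as many. The Igf2 window, the richest of 4 for that gene, held 22, a number reached by 14.8% of the windows. The Grb10 window, the richer of 2, held 40, reached by 1.31% of the windows, while the other held 8, reached by 43.0%, and both Grb10 probes were dark. Over the 14 member windows the number ran from 0, in a Meg3 window, to 40, with a median of 9 against 6 over all windows. The member windows are not all separate. The Mest windows chr6:30737800-30738049 and chr6:30737803-30738052 overlap and both held 14, so the median counts most of that stretch again. The CG counts describe the letters only, since methylation was not measured in these arrays.

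A gene was counted as detected where at least 1 of its probes was flagged as well above background on all 3 arrays. This held for 1 of the 10 members, against 54.4% of the named genes. In RNA from a whole culture, fewer cells that express a gene and less RNA per cell cannot be told apart. Counted by probe, 1 of 19 (5.26%) was detected, against 54.3% of the named probes. On at least 1 array, 4 members (Igf2, Meg3, Peg10 and Plagl1) had a probe well above background, against 14276 of the 22907 named genes. The remaining 6 members, H19, Dlk1, Grb10, Cdkn1c, Peg3 and Mest, were not above background on any array. The detected gene was 1 of the 6 that are read from the paternal copy, and 0 of the 4 read from the maternal copy were detected. The 14 probes that were dark on every array lay between 3.44 and 8.84, while the dimmest probe that passed the background flag read 16.6 on the array labelled Slpi and 18.9 on that labelled empty.

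**Figure D1:**
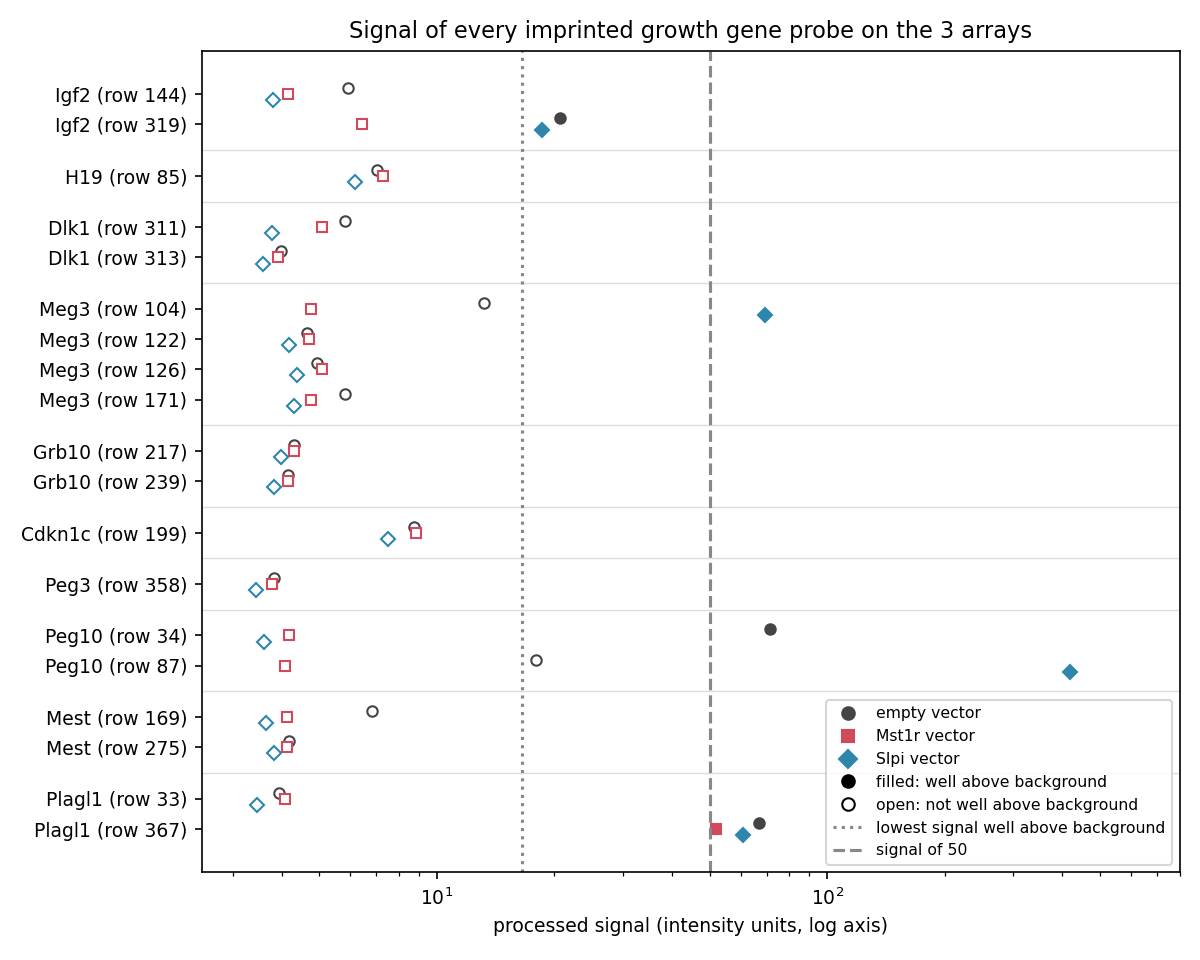
Processed signal (intensity, log axis) of each of the 19 member probes, named by gene and array row, on the 3 arrays. Filled marks are well above background and open marks are not, and only the Plagl1 probe in row 367 is filled on all 3 arrays.

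Agreement between probes could be read for the 7 members with 2 or more probes. Of these, 1 had a probe well above background on all arrays, and none had every probe so. Among the 7898 named genes with 2 or more probes, 73.2% were detected, and in 69.1% of those every probe was.

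Plagl1 encodes a zinc finger transcription factor that restrains the cell cycle and regulates other imprinted genes. Its probe in row 367 read 67.0 with empty vector, 51.9 with Mst1r and 60.8 with Slpi. The order was empty, Slpi, Mst1r, and all 3 values were above background. After scaling each array to its 75th percentile, the difference from empty vector was -0.14 ± 0.36 (log2) for the array labelled Mst1r and -0.06 ± 0.36 for that labelled Slpi. The arrays labelled Mst1r and Slpi differed by -0.08 ± 0.45. None of the neighbours in that order differed by more than the technical error. The image itself held a clear spot, with median pixel intensities of 91.5, 76.5 and 86.5 over local backgrounds of 20, 21 and 22. The other Plagl1 probe, in row 33, read 3.95, 4.08 and 3.47 and was dark on all arrays, so the gene's probes disagreed on whether it was expressed. Both carry the same RefSeq accession, NM_009538.

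Of the genes well above background on all arrays, the ones whose profile over the 3 arrays was nearest to that of Plagl1 were Nme6, Dap, Pkn2, 2210409E12Rik and Cse1l, by distance between centred log2 values. This order carries little, since 92.3% of the 12454 genes compared lay within the technical error of the Plagl1 profile, whose whole range was 0.14 (log2).

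Igf2 was near the limit of detection. Its probe in row 319 read 20.6 with empty vector, 6.42 with Mst1r and 18.6 with Slpi, and it was well above background on the arrays labelled empty and Slpi. The array labelled Slpi was level with empty vector, at a log2 difference of -0.08 ± 0.68. The array labelled Mst1r was lower by a log2 difference of -1.46 ± 0.84, but the signal of the brighter array was below 50, the minimum used for calls, and the dim side was not above background. Set at the signal of the dimmest detected probe on that array, the dim side leaves no fold above 1, and with normexp background correction the difference was -0.09 ± 0.24. The spot medians were 45 and 42 over local backgrounds of 23 and 21 on the arrays where it was detected. The Igf2 probe in row 144 read 5.91, 4.15 and 3.81 and was dark throughout, with the same accession, NM_010514. H19, the noncoding RNA that shares an enhancer region with Igf2 and is read from the other parental copy, read 7.02, 7.26 and 6.17 and was not above background on any array.

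Peg10, a gene derived from a retrotransposon and needed in the placenta, gave the brightest member spot and the plainest disagreement. Its probe in row 87 read 17.9 with empty vector, 4.07 with Mst1r and 420 with Slpi. Only the array labelled Slpi was well above background, where the signal was at least 23.4-fold that of empty vector and at least 20.1-fold that of Mst1r. These folds are bounds, with the dim array set to the signal of its dimmest detected probe, or to the probe's own signal if higher. Its other probe, in row 34, carries the same accession, NM_001040611, and went the other way. It read 71.3 with empty vector, 4.19 with Mst1r and 3.60 with Slpi, so that the array labelled empty was alone above background and the others were at least 3.23-fold and at least 4.08-fold lower. No array had both Peg10 probes above background, and no direction can be given for the gene.

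Meg3, a maternally read noncoding RNA of the Dlk1 domain, had 4 probes. The probe in row 104 read 13.2, 4.76 and 69.2 on the arrays labelled empty, Mst1r and Slpi, and was well above background on the last only, at least 3.86-fold higher than empty vector and at least 3.31-fold higher than the array labelled Mst1r. The probes in rows 122, 126 and 171 read 4.17, 4.38 and 4.30 on the array labelled Slpi and were dark on all arrays. The probe in row 126 has the accession of the bright one, NR_003633, and rows 122 and 171 have NR_027652. A single probe of 4 thus gave the whole Meg3 value.

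The remaining members were dark on every probe. Dlk1, a membrane protein of the Notch ligand family and a marker of hepatoblasts, read 5.82, 5.06 and 3.77 in row 311 and 3.99, 3.91 and 3.59 in row 313. Cdkn1c had the highest dark signals, at 8.76, 8.84 and 7.49. Grb10 lay at 4.16, 4.16 and 3.83 in row 239 and at 4.30, 4.32 and 3.99 in row 217. Peg3, a zinc finger protein, read 3.84, 3.79 and 3.44. Mest, a hydrolase-like protein, read 6.80, 4.13 and 3.66 in row 169 and 4.18, 4.13 and 3.82 in row 275. At these signals the repeated spots of 1 probe varied with an SD of 0.69 to 0.80 (log2), and an RNA giving less than the lowest signal above background was not detectable. Over the 14 dark probes the scaled difference from empty vector had a median of 0.22 (log2) for Mst1r and -0.10 for Slpi. The 5179 named genes under 5 on every array had medians close to these, at 0.24 and -0.08 after scaling and 0.01 and -0.15 without it.

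A gene was called where its brightest probe differed at least 2-fold after scaling and read over 50 on the brighter array. The brightest probe was the one with the highest mean over all 3 arrays, so the 420 with Slpi made it row 87 for Peg10. In the comparison of Mst1r with empty vector no member was called, where 1.72% of the named genes were called higher and 1.18% lower. The Peg10 probe in row 34, at 71.3 with empty vector and 4.19 with Mst1r, would by itself have met the rule as lower. In that of Slpi with empty vector, 2 members were called higher, Meg3 and Peg10, and none lower, against 0.96% and 1.09% of the named genes. Between the arrays labelled Mst1r and Slpi the same 2 were called lower with Mst1r, against 0.987% of the named genes lower and 1.62% higher. Each of these calls rested on 1 probe, with every other probe of the gene dark or moving the other way, and with the mean over all probes of a gene no member was called in the comparison with empty vector.

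The place of these spots on the array was read next, because stray bright spots were more frequent in rows 1 to 128 than in rows 129 to 384 on all 3 arrays. Control spots for RNA that should be absent read over 50 on 29 of 1036 spots in these rows on the array labelled empty (2.80%, exact 95% interval 1.88 to 3.996), on 41 of 1024 (4.004%, 2.89 to 5.39) on that labelled Mst1r and on 32 of 1024 (3.13%, 2.15 to 4.38) on that labelled Slpi. In rows 129 to 384 this was 0 of 1960, 2 of 1937 and 3 of 1937 spots. These intervals cover counting error only. Of gene probes not above background on the other arrays, 4.63%, 3.70% and 3.61% read over 50 in rows 1 to 128 on the arrays labelled empty, Mst1r and Slpi, and 0.0501%, 0.136% and 0.0502% in the rows after them.

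**Figure D2:**
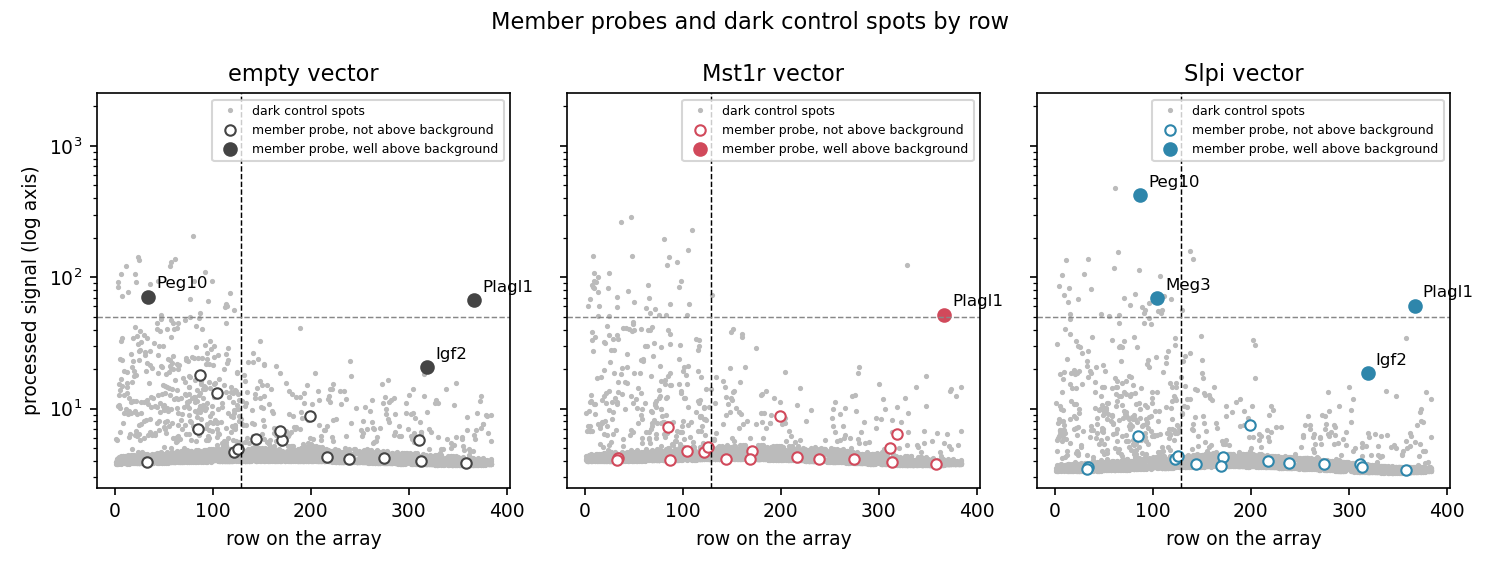
Processed signal (log axis) against array row for control spots that should be dark (grey) and the 19 member probes (circles, filled where well above background), 1 panel per array, with dashed lines at row 128 and a signal of 50. The Peg10 and Meg3 spots above background lie among bright control spots in rows 1 to 128, and those of Plagl1 and Igf2 lie in rows where such spots were rare.

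All member spots with a signal over 50 on 1 array only lay in these upper rows, at rows 34, 87 and 104. Of the 7 member probes in rows 1 to 128 none was above background on more than 1 array, while the Plagl1 and Igf2 probes in rows 367 and 319, among the 12 in rows 129 to 384, were so on 3 and 2. Within 2 rows and columns of the Peg10 spot in row 34, 2 of 14 gene spots that were dark on the other arrays also read over 50 with empty vector. Around the Meg3 spot 1 of 10 did so on the array labelled Slpi, and around the Peg10 spot in row 87 none of 11, with a highest neighbour of 6.30. Neither Peg10 spot nor the Meg3 spot was marked as an outlier, but probes on 1 spot have no repeats against which to be marked. With rows 129 to 384 only, 8 members kept a probe and none was called in either comparison, where 0.951% of the named genes were called with Mst1r and 0.233% with Slpi. H19 and Peg10 had no probe in these rows, and Meg3 only its dark probe in row 171. The Peg10 and Meg3 calls could therefore not be kept, and this setting gives no check of them. The part of these stray signals in the Peg10 and Meg3 values was not tested.

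The closest approach to a repeat came from another imprinted gene. Snrpn, a splicing protein gene of a different imprinted domain, was chosen after its values were seen because its probe was printed on 10 spots over rows 35 to 338. On the array labelled empty its spots lay between 3.98 and 8.62. On that labelled Mst1r the median was 14.3 and the highest spot 83.6, in row 103, and on that labelled Slpi the median was 6.98 and the highest spots 43.1 and 111, the latter in row 35. On each of the arrays labelled Mst1r and Slpi, 1 of the 10 spots of this probe read over 50 and the other spots did not. This share belongs to a chosen probe. Over 14 dim gene probes printed 10 times, Snrpn among them, 1 of 42 spots in the upper rows read over 50 with Mst1r. That spot was the Snrpn spot. With Slpi 2 of 42 did so, the Snrpn spot being the highest. In the rows after them it was 0 of 98 on both arrays. With empty vector, 3 of 38 and 0 of 82 spots of 12 such probes read over 50, none from Snrpn.

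The neighbours of the members gave the wider view of the imprinted domains. Of 54 other imprinted genes with a probe, 24 (44.4%) were well above background on all arrays and 26 were dark on every array. The detected ones included Gnas, the stimulatory G protein subunit, Copg2, a coat protein of transport vesicles next to Mest, and Sgce, a sarcoglycan next to Peg10. Copg2 read 500, 459 and 566 and Sgce 24.2, 31.2 and 23.2, with another Sgce probe dark, while Mest was dark. Near Igf2 and Cdkn1c, the brightest probe of the noncoding Kcnq1ot1 was at 698, 627 and 629, while its probe in row 294 was dark on all arrays. Ins2, Phlda2, Slc22a18, Kcnq1 and Ascl2 were dark on all arrays. Other genes of the same region were bright on all of them, with Cd81, a tetraspanin, at 10050, 7746 and 9951, and the brightest probes of Tssc4, Nap1l4 and Osbpl5 between 1050 and 2027. In the Dlk1 and Meg3 domain Rian and Rtl1 were dark, with Rtl1 at 18.2 on the array labelled Mst1r without being well above background. Mirg, the noncoding RNA at the end of that domain, read 321 with empty vector and 7.12 and 9.09 with Mst1r and Slpi, at least 14.6-fold and at least 18.4-fold lower, from a probe in row 8. Usp29 and Zim1 beside Peg3 were dark, and Ddc, the decarboxylase gene beside Grb10, read 132, 58.6 and 107, a log2 difference of -0.94 ± 0.36 with Mst1r and -0.23 ± 0.24 with Slpi, with another Ddc probe dark on all arrays.

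Over the 22 of these genes with a mean signal over 50 the median log2 difference was -0.05 with Mst1r and -0.07 with Slpi, beside -0.05 and 0.01 over all 11606 such genes. With Mst1r 1 of the 54 was called higher, Igf2r, and 2 lower, Mirg and the potassium channel gene Kcnk9, which read 62.5, 4.07 and 5.10 in row 34. With Slpi 2 were called lower, the same Mirg and Kcnk9, whose fold rests on the same empty vector spots. All of these called probes lay in rows 1 to 128, as did 272 of 393 higher and 243 of 271 lower calls over all genes with Mst1r, and 191 of 220 and 241 of 249 with Slpi.

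**Figure D3:**
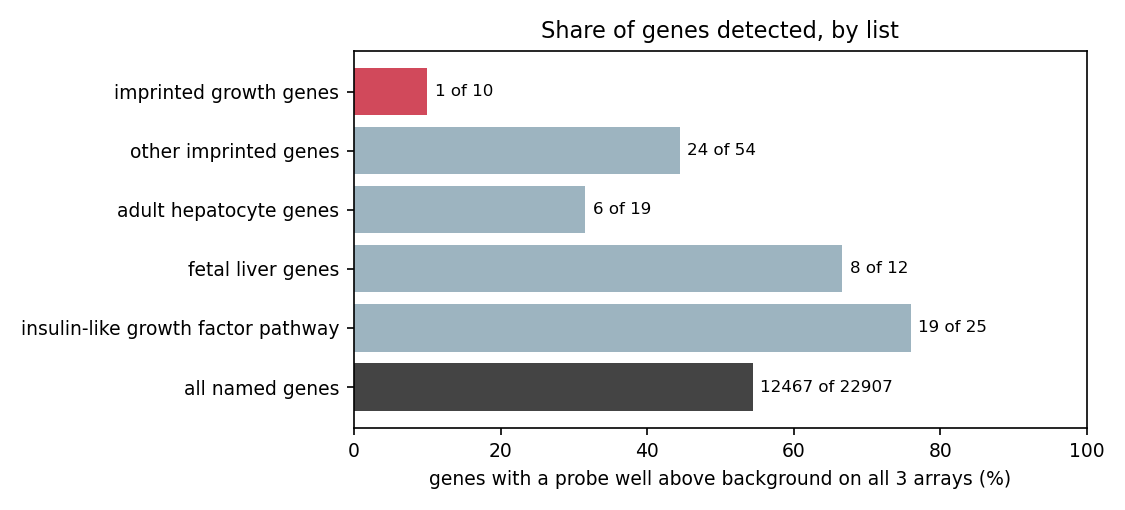
Percentage of genes with a probe well above background on all 3 arrays, for 5 gene lists and for all named genes, with the numbers at the bars. Of the lists drawn, which leave out the cell type markers, the imprinted growth genes have the lowest share, 1 of 10, and the insulin-like growth factor pathway the highest, 19 of 25.

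The rest of the insulin-like growth factor pathway was largely present although Igf2 was faint. Of its 25 genes 19 (76%) were well above background on all arrays. Of the ligands, Igf1 read 65.0, 28.9 and 51.7, a log2 difference of -0.94 ± 0.51 with Mst1r and -0.25 ± 0.36 with Slpi, and Ins2 was dark. Of the receptors, Igf1r, through which Igf1 and Igf2 signal, read 65.6, 53.5 and 66.2, within the technical error of empty vector on both arrays. Another Igf1r probe with the same accession, in row 44, read 3.89, 5.97 and 29.4 and was well above background with Slpi only, at least 1.64-fold higher than empty vector and below the minimum for calls. Igf2r, which clears Igf2 and is itself read from the maternal copy, read 61.6 with empty vector, 128 with Mst1r and 54.5 with Slpi. Its log2 difference of 1.28 ± 0.36 was called with Mst1r, from a probe in row 4 that was well above background on all 3 arrays. In rows 1 to 128, 4.004% of the dark control spots read over 50 on the array labelled Mst1r. Any part of stray signal in the Igf2r value was not tested.

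Among the binding proteins, which hold the ligands outside the cell, Igfbp3 was at 4981, 4989 and 4522. Igfbp7 was lower with Mst1r, at 186, 91.4 and 171, a log2 difference of -0.80 ± 0.24, short of the 2-fold threshold. Igfbp1 was well above background on the arrays labelled Mst1r and Slpi only, at 14.6, 32.2 and 24.1, below the minimum for calls. The RNA-binding proteins named for Igf2 mRNA differed among themselves. Igf2bp1 read 3276, 2220 and 3101, a log2 difference of -0.33 ± 0.12 with Mst1r, Igf2bp3 read 4022, 3480 and 3762 and differed by 0.02 ± 0.12, and Igf2bp2 was dark on all arrays. Below the receptors, the adaptors Irs1 and Irs2 were lower with Mst1r by log2 differences of -0.38 ± 0.13 and -0.25 ± 0.12. Of the 25 genes, 1 was called higher with Mst1r, none lower, and none in either direction with Slpi. The 17 with a mean signal over 50 had median differences of -0.08 and -0.02.

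**Figure D4:**
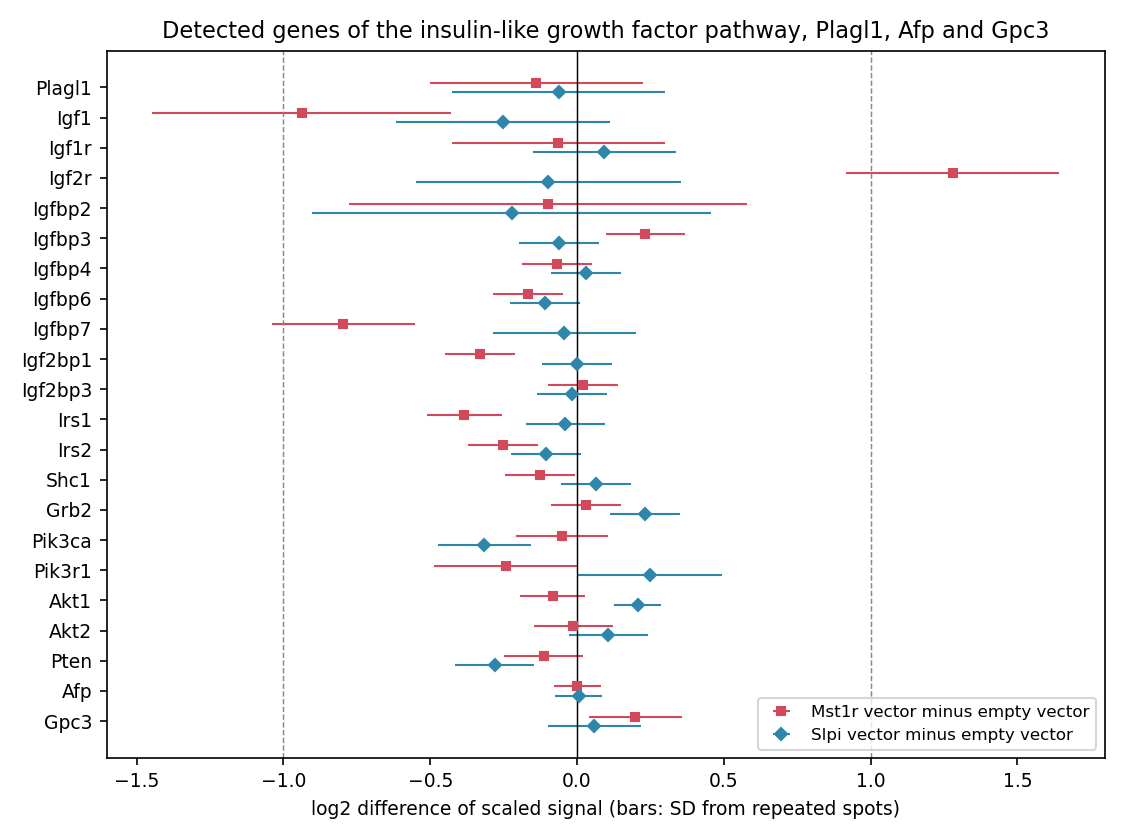
Log2 difference of scaled signal from the array labelled empty vector for Plagl1, the insulin-like growth factor pathway genes well above background on all arrays, Afp and Gpc3, with bars for the SD that repeated spots give and dashed lines at 2-fold. Igf2r with Mst1r lies past a dashed line at 1.28, and Plagl1, Afp and Gpc3 lie near 0.

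Some fetal liver genes outside the imprinted list were seen and others were not. Afp, the main serum protein of fetal liver, read 19822, 16911 and 18850, level with empty vector at 0.00 ± 0.08 and 0.01 ± 0.08 (log2). Gpc3, a proteoglycan of fetal liver and liver tumours, read 429, 420 and 424. Among the fetal liver markers, Epcam was dark, at 4.24, 4.34 and 3.81. Lin28b was well above background with empty vector only, at 46.6, 19.9 and 3.48 in row 8. Its probe in row 6 read 52.7, 5.87 and 9.93, and by itself would have met the rule as lower in both comparisons. Of the 12 genes of the fetal liver list 8 (66.7%) were well above background on all arrays. By the brightest probe none was called in either comparison. The median differences were 0.00 for both over the 7 with a mean signal over 50. Of the 19 genes of mature hepatocytes 6 (31.6%) were detected. Alb, the main serum protein of the adult, read 5083, 6449 and 4966, a log2 difference of 0.57 ± 0.13 with Mst1r and 0.04 ± 0.13 with Slpi. Tdo2, an enzyme of tryptophan breakdown, was called higher with Mst1r, at 23.8, 53.5 and 22.6, from a probe in row 22, and no other gene of the list was called in either comparison. Over the 5 adult genes with a mean signal over 50, the median differences were -0.03 and 0.05.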

How the data were processed

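Per the file headers, the deposited spot intensities were extracted by the authors with Agilent Feature Extraction 12.0.3.1, and the processed signal is background-subtracted and spatially detrended, with flags for spots well above background. RNA (100 ng) was labelled with Cy3 and the arrays have 62976 spots in 384 rows, and no spot was saturated. The 3 arrays are 1 per group, so their number limits the precision and no test was made.

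Log2 of the deposited intensity was averaged over unflagged spots of a probe, and each array's 75th percentile was subtracted, as the methods name. Names came from RefSeq accessions (25122 of 47837 matched, GRCm38.p6 table used for names). A gene was represented by its brightest probe. Calls needed a 2-fold difference and a signal over 50. The error is the spot SD of 300 probes printed at least 10 times and of the controls.

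The members and lists were chosen with earlier results of these data known. Every member probe is given. Of other lists, genes called in either comparison (up to 5 per list) and a set list of neighbours and pathway genes are named, and a few more were added after their values were seen, such as Gnas, Kcnq1ot1, Cd81, Ddc and Igfbp7. Of 132 list entries 2 had no matched probe. Alternatives were other scalings, normexp (limma 3.58.1, R 4.3.3, offset 50), the deposited value table, the signal minimum, all probes of a gene, flagged spots kept, and rows 129 to 384 only. Python 3.11.15 with numpy 2.4.6, pandas 2.3.3 and scipy 1.17.1 were used, and the calculation was tested on simulated data.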

Additional observations from a re-analysis of the deposited data

Results flagged for a closer look

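Signals in control spots, which no comparison used, were marked for a closer look because they exceeded the level of a dark spot. In rows 1 to 128, 2.80% of the dark control spots read over 50 on the array labelled empty vector, 4.004% on that labelled Mst1r and 3.13% on that labelled Slpi, and the highest read 207, 289 and 481. All control spots over 50 were marked as outliers among the repeats of their probe. Member probes, printed on 1 spot each, have no such repeats.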

How the results depend on the processing

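No paired analysis was possible because each group has 1 array. Without the signal minimum, 3 members (Igf2, Meg3 and Peg10) were 2-fold lower with Mst1r in place of 0, beside 1124 named genes higher and 1032 lower. With Slpi, the 2 called members fell to 1 (Peg10) with normexp, and to 0 with a probe well above background on both arrays, with the mean over all probes of a gene, and with rows 129 to 384 only, while the named genes called fell from 2.05% to 1.04%, 0.716%, 1.63% and 0.233%. With Mst1r that share fell from 2.90% to 1.44%, 1.36%, 2.30% and 0.951% under the same settings. Members detected on all arrays went from 1 to 0 where most probes of a gene had to be detected. With detection on at least 1 array there were 4, beside 14276 of 22907 named genes. In rows 129 to 384 this was 2 of 8, beside 9933 of 17136 named genes. Both of these counts on at least 1 array were chosen after seeing the data. The log2 difference of Meg3 with Slpi reversed to -0.35 in rows 129 to 384, where the remaining probe was dark. Peg10 has no probe in those rows, so neither of the called members could be called there. Of 156 member differences under alternatives, 149 moved by less than the technical error, 6 by more, and that of Meg3 reversed. The cause of the other shifts was not tested. With normexp the Igf2 difference with Mst1r was -0.09 and the Peg10 difference with Slpi was 2.74. Signal over background limits the rest, since 14 of 19 member probes have no level above it.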
